A study of Mus musculus with 14 samples.

Results

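The spleen of L2-fKO mice, which lack Zfp36l2 in every tissue, was compared with the spleen of wild-type (WT) littermates by sequencing polyadenylated RNA from whole tissue. The members of the comparison were 16911 genes, those among 49315 in the count table that reached 10 counts in 4 or more of the 8 spleen libraries, and no fold change or p entered the choice. Both groups held 4 libraries, each from a different pup. L2-fKO pups had the genotype Zfp36l2-/-;CMV-Cre, in which a Cre transgene under the CMV promoter, active in all tissues, had removed the floxed exon 2 of both copies. WT littermates had both copies intact and also carried Tg.CMV-Cre, so the transgene was shared by all 8 animals and the deletion was not. The mice were pups taken as age-matched pairs, and the paper places its spleen profiling in the first 10 days of life. The age per library and the animals that form a pair are not given in the sources used here. The L2-fKO animals lacked the gene in all organs, not in the spleen or the blood cells alone. The sample labels write Spleen Organoid and L2-cKO, here read as spleen and L2-fKO. The WT libraries came from 2 females (1 and 3) and 2 males (2 and 4), and the L2-fKO libraries from 1 female (3) and 3 males.

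ZFP36L2 is a zinc-finger protein of the tristetraprolin family that binds AU-rich stretches of messenger RNA and recruits the deadenylation machinery, so its targets are degraded sooner where it is present. It is known for its part in the self-renewal of blood stem cells and early erythroid progenitors. The spleen of a newborn mouse is a blood-forming organ: it makes red cells, granulocytes and megakaryocytes, the large cells that shed platelets, beside the lymphocytes and macrophages that later dominate it. These cells sit in a mesh of fibroblasts, endothelium and basement membrane.

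Of the 16911 genes, 490 (2.90%) were higher and 526 (3.11%) were lower in L2-fKO spleen by more than 1 on the log2 scale with an adjusted p below 0.05 (quasi-likelihood test of edgeR, Benjamini-Hochberg adjustment over all genes tested). With that limit on p alone, 6.89% were higher and 6.51% were lower. A gene is said to have risen or fallen only where it passed both limits. Levels are counts divided by each library's effective size and multiplied by the mean effective size, called normalized counts, and fold changes are of L2-fKO over WT. The fallen genes moved further: their median absolute log2 fold change was 1.78 against 1.48 for the risen genes, and 40 of them against 17 passed 4. The 4 libraries of each genotype did not overlap in 467 of the 490 risen and 508 of the 526 fallen genes. Over all genes tested, 9.61% were higher and 10.8% were lower in L2-fKO with no overlap. For 11462 genes, 67.8% of those tested, the 95% interval of the log2 fold change lay wholly between -1 and 1, so changes beyond the fold limit were outside the interval for these genes. The median interval reached 0.432 to either side.

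**Figure D1:**
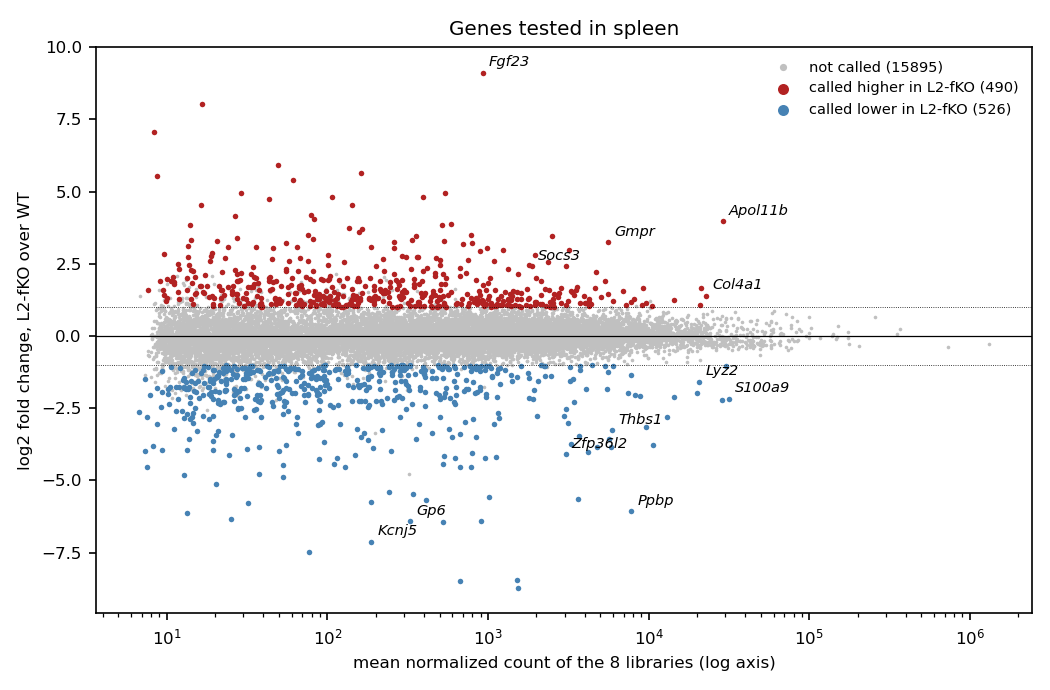
Each point is 1 of the 16911 genes tested, with its mean normalized count over the 8 libraries on a log axis and its log2 fold change, L2-fKO over WT, on the vertical axis. The 490 red points passed both limits upwards and the 526 blue points downwards, dotted lines mark the fold limit, and the 3 blue points lowest in the plot are the pancreatic enzyme genes Pnliprp1, Cel and Ctrb1.

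The depth was close to even, 39138010 to 45167464 counts per library. Zfp36l2 itself stood at 7394, 4773, 6429 and 4362 in the WT libraries and 278, 326, 349 and 405 in the L2-fKO libraries (log2 fold change -4.08, standard error 0.21, adjusted p = 8.84e-06), and every L2-fKO library was far below every WT library. The first principal component, 47.2% of the variance, separated the genotypes. The second, 20.4%, put L2-fKO spleen 4 and WT spleen 1 at one end. L2-fKO spleen 4 was the knockout library nearest to the WT libraries in 192 of the 490 risen and 201 of the 526 fallen genes, more often than any other knockout library. The spleen markers Tlx1 and Nkx2-5, transcription factors of the developing spleen, were present in all 8 libraries, at 1704 to 2112 and 477 to 653 normalized counts in WT and 2303 to 4092 and 494 to 876 in L2-fKO. Genes of other tissues stood high in 3 WT libraries and 1 L2-fKO library. The summed level of 18 pancreatic acinar genes was 27182, 8268 and 23524 in WT spleen 1, 2 and 4, against 1737 in WT spleen 3 and 1267 to 2199 in L2-fKO, with Ptf1a and Amy2a5 at 0 in all L2-fKO libraries. A list of 7 hepatocyte genes summed to 943 in L2-fKO spleen 4 and to no more than 39.6 elsewhere. Of the 6 acinar genes with enough counts to be tested, 5 were called down, and how far that tissue bears on other fallen genes was not tested.

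Beside the pancreatic enzyme genes, the genes that fell furthest were mostly those of megakaryocytes and platelets. Gp6, the platelet collagen receptor, stood at 571, 801, 548 and 668 in the WT libraries and 4.18, 5.54, 7.60 and 11.9 in the L2-fKO libraries (log2 fold change -6.41, standard error 0.30, adjusted p = 8.84e-06). Ppbp, a chemokine precursor stored in platelet granules, stood at 13669, 19949.6, 10085 and 17738 in the WT libraries and 244, 331, 119 and 225 in the L2-fKO libraries (log2 fold change -6.06, standard error 0.36, adjusted p = 1.49e-05). In both, the highest L2-fKO library was far below the lowest WT library. Of 12 megakaryocyte markers tested, 11 fell, with a median log2 fold change of -4.12 over the 12 against -0.02 over all genes. The member that was not called was Nfe2, a transcription factor that erythroid cells also use, at 12718, 13930.1, 10040.3 and 17229 in the WT libraries and 18672, 15804, 20251 and 9012 in the L2-fKO libraries (log2 fold change 0.24, adjusted p = 0.559). In whole tissue, fewer cells of a type and less RNA per cell cannot be told apart.

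Other fallen genes with large folds were further platelet genes, an ion channel and proteases or their inhibitors. Log2 fold changes were -6.39 for Treml1, a receptor of platelet alpha granules, -5.67 for Mpig6b, an inhibitory receptor of megakaryocytes, -5.75 for Ly6g6f, a platelet surface protein, -5.64 for Pf4, a platelet chemokine, and -5.56 for Gp1bb, a subunit of the receptor for von Willebrand factor. Kcnj5, an inwardly rectifying potassium channel, stood at 306, 393, 376 and 413 in the WT libraries and 7.31, 2.22, 1.09 and 0 in the L2-fKO libraries (log2 fold change -7.12, standard error 0.52, adjusted p = 4.75e-05). Serpina3b, a protease inhibitor, had 3 counts in the 4 L2-fKO libraries together and 622 in the 4 WT libraries, a ratio of 203 with a 95% counting interval of 69.0 to 985 (adjusted p = 8.80e-05). Klk1, tissue kallikrein, stood at 239.5, 44.4, 11.9 and 111 in the WT libraries and 1.04, 5.54, 4.35 and 2.56 in the L2-fKO libraries (log2 fold change -4.89, adjusted p = 0.00894), with its lowest WT level in WT spleen 3, the library with the least acinar RNA of the WT group, and the part of that tissue in its fold change was not tested. Among the genes with the lowest p were Gp6, Mrvi1, Tubb1, Thbs1 and Zfp36l2. Mrvi1, a substrate of cyclic GMP-dependent kinase in platelets and smooth muscle, stood at 1217, 1557, 1499.8 and 1403 in the WT libraries and 201, 209, 161 and 197 in the L2-fKO libraries. Tubb1, the beta-tubulin of the platelet marginal band, stood at 1593, 1889, 1839.7 and 1992 in the WT libraries and 111, 117, 60.8 and 104 in the L2-fKO libraries.

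The RefSeq promoters of the genes tested, from 250 bases before to 50 after the start of each transcript (build GRCm38.p6), were searched on both strands for letters that GATA factors, which drive megakaryocyte and erythroid genes, are known to bind. AGATAA was found in 52 of 358 fallen genes with a promoter sequence (14.5%), in 26 of 302 risen genes (8.61%) and in 970 of 11732 genes tested (8.27%). The overlapping letters GATAAG gave 12.3%, 7.95% and 6.76%. TATAAA, the letters of the TATA box, were in 14.5%, 11.6% and 9.27%. AGATAA was in 2 of 8 megakaryocyte and in 2 of 10 neutrophil markers with a promoter sequence, and GATAAG in 3 and 0. In all, 15 motifs were searched after the values were seen, and such a match is a description of the letters only. These 4 windows of 30 bases hold a match in capitals, in the promoters of Gp6, Pf4 and the receptor subunits Gp1ba and Gp9, which stood at 922, 1281, 869.7 and 1314 and 1596, 2645, 1501 and 2518 in WT and at 97.1, 96.4, 85.8 and 111 and 309, 304, 353 and 199 in L2-fKO. They are shown 5′ to 3′ on the strand of the gene.
Gp6 (chr7:4397871-4397900, minus strand): gctggcaagaagAGATAAgtggtggcttta
Pf4 (chr5:90772455-90772484, plus strand): actgggcaggcagtgaAGATAAaacgtgct
Gp1ba (chr11:70639007-70639036, plus strand): gtgcagagagctGATAAGagcctttgcccg
Gp9 (chr6:87778015-87778044, plus strand): ctgtctttagggGATAAGccaggctatttt

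Further genes of platelets and clotting fell. Thbs1, thrombospondin 1, a matrix protein released by platelets and macrophages, stood at 10317, 12055, 9842 and 10551 in the WT libraries and 1032, 1494, 968 and 969 in the L2-fKO libraries (log2 fold change -3.26, standard error 0.17, adjusted p = 8.84e-06). Of 25 genes of coagulation and fibrinolysis tested, 7 fell and 1 rose, with a median of -0.21. Beside this and the further lists below, 3.11% of all genes tested fell and 2.90% rose. Of those that fell, Vwf, von Willebrand factor, is also among the megakaryocyte markers. The others included F2rl2, a thrombin receptor (log2 fold change -4.52, adjusted p = 1.86e-05), Serpinb2, an inhibitor of plasminogen activators (log2 fold change -4.12, adjusted p = 1.86e-05), the clotting factor F5 (log2 fold change -4.22, adjusted p = 3.80e-04), and F13a1, which cross-links fibrin (log2 fold change -2.99, adjusted p = 2.84e-04), while Plat, tissue plasminogen activator, rose (log2 fold change 1.03, adjusted p = 0.0434). Among enzymes and receptors of eicosanoids, 4 of 25 fell and 1 rose. Alox12, the platelet lipoxygenase, stood at 3124, 4633, 2282 and 3951 in the WT libraries and 502, 494, 399.8 and 657 in the L2-fKO libraries (log2 fold change -2.77, standard error 0.24, adjusted p = 1.33e-04), and Alox5ap, which leukotriene synthesis needs, at 2902, 3194, 3154 and 2878 in the WT libraries and 1043, 1290.4, 496 and 1312 in the L2-fKO libraries (log2 fold change -1.55, standard error 0.26, adjusted p = 0.00457). Ptger3, a receptor for prostaglandin E, rose (log2 fold change 1.42, adjusted p = 0.00838). Purinergic and cyclic nucleotide genes had 3 fallen and 0 risen members of 28: the platelet ATP and ADP receptors P2rx1 (log2 fold change -2.10, adjusted p = 3.56e-04) and P2ry1 (log2 fold change -1.97, adjusted p = 5.75e-04) and the cyclic GMP phosphodiesterase Pde5a (log2 fold change -1.78, adjusted p = 7.69e-04). Rab27b, a GTPase of platelet granule release, fell from 1036, 1361, 1240.4 and 1286 to 99.2, 147, 77.1 and 142 (log2 fold change -3.40, standard error 0.22, adjusted p = 1.86e-05). Plat lost its call when WT spleen 1, WT spleen 2, WT spleen 3, L2-fKO spleen 1, L2-fKO spleen 2 or L2-fKO spleen 3 was left out (log2 fold change 0.81 to 1.14, adjusted p = 0.0572 to 0.110). Plat lost its call in the male libraries alone (log2 fold change 0.75, adjusted p = 0.188).

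Ranked by the difference in normalized counts, which also grows with transcript length, the fallen genes were led by those of granulocytes. S100a9, a calcium-binding protein abundant in neutrophils, stood at 43103, 47219, 73575 and 43614 in the WT libraries and 14391, 16088, 3051 and 12525 in the L2-fKO libraries (log2 fold change -2.17, standard error 0.44, adjusted p = 0.0115). Camp, the precursor of an antimicrobial peptide of secondary granules, stood at 18877, 25475, 24158 and 22229.8 in the WT libraries and 5074, 4432, 829 and 2573 in the L2-fKO libraries (log2 fold change -2.81, standard error 0.46, adjusted p = 0.00412). Chil3, a chitinase-like protein of neutrophils and macrophages, stood at 8765, 8471, 11237 and 7036 in the WT libraries and 744, 719, 164 and 823 in the L2-fKO libraries (log2 fold change -3.86, standard error 0.44, adjusted p = 5.71e-04). The genotypes did not overlap, and L2-fKO spleen 3 was the lowest library in each of these. All 11 neutrophil markers fell, with a median log2 fold change of -2.03, and their summed level was 167138 to 270589.8 in WT and 10811 to 61671 in L2-fKO. Without WT spleen 2, 6 of them were called, and without L2-fKO spleen 1, 7. Lyz2, the lysozyme of granulocytes and macrophages, fell less (log2 fold change -1.58, adjusted p = 0.00727), and Ctse, an aspartic protease of the endosome, overlapped between genotypes at 29803, 43090.3, 36839.7 and 53859.8 in the WT libraries and 18729, 16906, 31969.5 and 11354 in the L2-fKO libraries (log2 fold change -1.05, adjusted p = 0.0467). S100a9, Ngp, S100a8, Ctse, Lyz2, Camp, Stfa1 and Ltf had the largest differences of the fallen genes, and these 8 held 36.6% of the summed difference of all fallen genes. Ctse lost its call when WT spleen 2, WT spleen 3, WT spleen 4, L2-fKO spleen 1, L2-fKO spleen 2 or L2-fKO spleen 4 was left out (log2 fold change -1.10 to -0.86, adjusted p = 0.0525 to 0.133). Ctse lost its call with sex as a covariate (log2 fold change -1.05, adjusted p = 0.0636).

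Genes of the eosinophil were among the fallen, and they were named after their values were seen. Prg2, major basic protein, stood at 7516, 8363, 19101 and 8685 in the WT libraries and 876, 1223, 202 and 726 in the L2-fKO libraries (log2 fold change -3.85, standard error 0.53, adjusted p = 0.00165). Its homologue Prg3 (log2 fold change -2.82, adjusted p = 8.19e-04), the eosinophil peroxidase Epx (log2 fold change -2.66, adjusted p = 0.0105) and the granule ribonuclease Ear6 (log2 fold change -4.42, adjusted p = 0.00165) fell too. WT spleen 3 was the highest and L2-fKO spleen 3 the lowest library for all of these. Mast cell genes went the other way. Mcpt4, a mast cell protease, stood at 182, 689.9, 696 and 425 in the WT libraries and 3039, 3591, 1006 and 6118 in the L2-fKO libraries (log2 fold change 2.79, standard error 0.55, adjusted p = 0.0105), and Tpsb2, tryptase, at 67.9, 335, 434 and 289 in the WT libraries and 1986, 2160.0, 770.2 and 3919 in the L2-fKO libraries (log2 fold change 2.97, standard error 0.58, adjusted p = 0.00994). Of 9 markers of mast cells and basophils, 6 rose, and the basophil proteases Mcpt8 (log2 fold change -0.08, adjusted p = 0.919) and Prss34 (log2 fold change -0.48, adjusted p = 0.422) and the receptor subunit Ms4a2 (log2 fold change 0.87, adjusted p = 0.213) were not called. The summed level of the list was 2095 to 2914 in WT and 2755 to 15419.8 in L2-fKO, where L2-fKO spleen 3 was at the low end, within the WT range. Ms4a2 passed both limits without L2-fKO spleen 3 (log2 fold change 1.17, adjusted p = 0.0217).

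**Figure D2:**
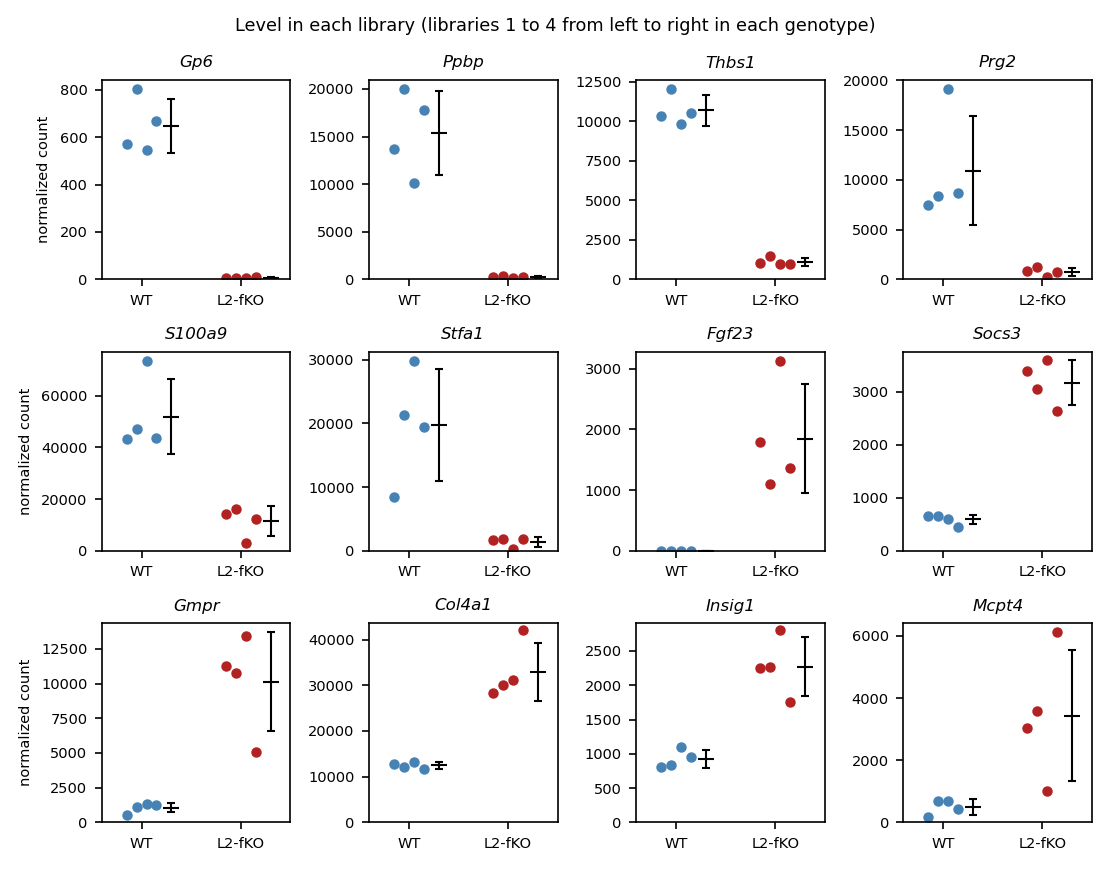
Points are normalized counts of 12 genes in the 4 WT (blue) and 4 L2-fKO (red) libraries, libraries 1 to 4 from left to right, with the mean and SD of the 4 in black and each axis starting at 0. The genotypes do not overlap in any of the 12, L2-fKO spleen 3 is the lowest L2-fKO library for Prg2, S100a9, Stfa1 and Mcpt4, and L2-fKO spleen 4 is the lowest for Socs3, Gmpr and Insig1.

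Among the risen genes with the largest folds, Fgf23, the bone hormone that lowers phosphate, stood at 1.89, 5.05, 5.96 and 0 in the WT libraries and 1794, 1108, 3126 and 1373 in the L2-fKO libraries (log2 fold change 9.11, standard error 0.56, adjusted p = 1.82e-05). A2m, alpha-2-macroglobulin, a broad protease inhibitor, stood at 7.54, 5.05, 7.95 and 4.04 in the WT libraries and 273, 136, 606 and 252 in the L2-fKO libraries (log2 fold change 5.65, standard error 0.52, adjusted p = 2.03e-04). C2cd4a, a nuclear protein induced by inflammatory cytokines, stood at 21.7, 26.3, 78.5 and 8.09 in the WT libraries and 1219, 1213, 922 and 832 in the L2-fKO libraries (log2 fold change 4.95, standard error 0.53, adjusted p = 4.25e-04). The genotypes were far apart in each, with WT levels near the floor for the first 2. Mmp3, stromelysin, a matrix protease, stood at 11.3, 16.2, 10.9 and 8.09 in the WT libraries and 320.5, 222, 273 and 277 in the L2-fKO libraries (log2 fold change 4.54, standard error 0.25, adjusted p = 1.10e-05), and Cda, cytidine deaminase of pyrimidine salvage, at 85.8, 70.7, 58.6 and 57.6 in the WT libraries and 1004, 945, 1399 and 545 in the L2-fKO libraries (log2 fold change 3.83, standard error 0.29, adjusted p = 6.22e-05). Apol11b, an apolipoprotein L gene, stood at 5557, 2737, 2667 and 2921 in the WT libraries and 52187, 29008, 80884 and 56429 in the L2-fKO libraries (log2 fold change 3.98, standard error 0.37, adjusted p = 2.03e-04), and its neighbours Apol11a (log2 fold change 4.81, adjusted p = 7.63e-04) and Apol10a (log2 fold change 5.40, adjusted p = 3.78e-04) rose as well. Reads shared by the near-identical copies of this family were not counted, so their levels are uncertain. Gbp2b, a guanylate-binding protein induced by interferon, was uneven within the knockout group: it was at 520.1 in L2-fKO spleen 4, 24.0 to 50.0 in the other L2-fKO libraries and 5.05 to 13.2 in WT (log2 fold change 4.04, adjusted p = 0.0360). Gbp2b lost its call when WT spleen 1, WT spleen 2, WT spleen 3 or WT spleen 4 was left out (log2 fold change 3.84 to 4.26, adjusted p = 0.0670 to 0.107). Gbp2b had a log2 fold change of 1.81 without L2-fKO spleen 4 (adjusted p = 0.0159). Gbp2b lost its call with sex as a covariate (log2 fold change 3.73, adjusted p = 0.0915) and in the male libraries alone (log2 fold change 4.74, adjusted p = 0.111).

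The 6 risen genes with the lowest p were Mmp3, Ngfr, Fgf23, Socs3, Tnn and Col26a1. Ngfr, the low-affinity nerve growth factor receptor, which marks reticular stroma, stood at 475, 638, 559 and 610.4 in the WT libraries and 2593, 2607, 2137 and 2709.8 in the L2-fKO libraries (log2 fold change 2.14, standard error 0.13, adjusted p = 1.82e-05). Tnn, tenascin-N, a matrix glycoprotein, stood at 71.7, 47.5, 49.7 and 54.6 in the WT libraries and 462, 405, 563 and 425 in the L2-fKO libraries (log2 fold change 3.05, standard error 0.20, adjusted p = 1.86e-05), and Col26a1, a collagen, at 318, 253, 391 and 272 in the WT libraries and 1919.7, 1579.5, 2215 and 1831 in the L2-fKO libraries (log2 fold change 2.61, standard error 0.17, adjusted p = 2.01e-05). The knockout libraries sat close together in these genes, L2-fKO spleen 4 included, but picking genes by the lowest p favours a small spread within a genotype. By difference in counts, the basement membrane collagen chains Col4a1 and Col4a2 were near the top. Col4a1 stood at 12782, 12218, 13227 and 11639 in the WT libraries and 28265, 29982, 31159 and 42091 in the L2-fKO libraries (log2 fold change 1.40, standard error 0.15, adjusted p = 4.01e-04) and Col4a2 at 9099.6, 8473, 8284 and 8190.5 in the WT libraries and 17838, 18260.0, 20224 and 25119 in the L2-fKO libraries (log2 fold change 1.26, standard error 0.13, adjusted p = 4.11e-04). Fn1, fibronectin, rose (log2 fold change 1.07, adjusted p = 0.00104), as did Smoc2, a matricellular calcium-binding protein (log2 fold change 1.65, adjusted p = 3.21e-04), Emilin1, an elastic fibre glycoprotein (log2 fold change 1.17, adjusted p = 4.11e-04), and Col18a1, another basement membrane collagen (log2 fold change 1.30, adjusted p = 3.87e-05). Of 8 fibroblast markers, 3 rose, Lum (log2 fold change 1.90, adjusted p = 5.01e-04), Pdgfra (log2 fold change 1.59, adjusted p = 0.00104) and Pdgfrb (log2 fold change 1.15, adjusted p = 5.48e-04), and the fibrillar collagen gene Col1a1 stood at 9357, 10857, 11514 and 13257 in the WT libraries and 14089, 12544, 14062 and 16225 in the L2-fKO libraries (log2 fold change 0.34, adjusted p = 0.127). None of 8 endothelial markers rose, with a median of 0.26, and 2 of them were higher at an adjusted p below 0.05 alone.

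Gmpr, guanosine monophosphate reductase, which converts guanine to adenine nucleotides, had 566, 1141, 1292 and 1283 in the WT libraries and 11283, 10759.9, 13416 and 5049.5 in the L2-fKO libraries (log2 fold change 3.24, standard error 0.35, adjusted p = 4.45e-04). Its lowest knockout library was L2-fKO spleen 4. Upp1, uridine phosphorylase of pyrimidine salvage, rose from 72.6, 90.9, 83.5 and 75.8 to 194, 167, 223 and 263 (log2 fold change 1.39, standard error 0.19, adjusted p = 0.00169). In 20 genes of one-carbon and serine metabolism, 2 rose, among them Mthfd2, the mitochondrial folate enzyme, at 4058, 3731, 2985 and 3485 in the WT libraries and 11648, 10264, 13639.5 and 5951 in the L2-fKO libraries (log2 fold change 1.54, standard error 0.23, adjusted p = 0.00262). None fell, and the median was 0.18. Over all genes tested, 2.90% rose and 3.11% fell, so 2 of 20 is a small count beside that share.

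Signalling by cytokines of the interleukin-6 family runs through the shared receptor IL6ST to the factor STAT3, which turns on the inhibitor SOCS3 and acute phase genes. Of 17 genes tested from a list of acute phase and STAT3-responsive genes, 7 rose and 3 fell, with a median of 0.82. The shares over all genes tested were 2.90% risen and 3.11% fallen. Without WT spleen 2, or without WT spleen 4, 4 of them were called up. Socs3 stood at 652, 659, 604 and 457 in the WT libraries and 3402, 3048, 3603 and 2633 in the L2-fKO libraries (log2 fold change 2.42, standard error 0.15, adjusted p = 1.86e-05). Pim1, a survival kinase, stood at 15853, 8356, 8920.2 and 7249 in the WT libraries and 32212, 30397, 45600.3 and 21042 in the L2-fKO libraries (log2 fold change 1.68, standard error 0.29, adjusted p = 0.00577). Serpina3n, a protease inhibitor of the acute phase, stood at 225, 66.7, 32.8 and 70.7 in the WT libraries and 956, 807, 1126 and 1001 in the L2-fKO libraries (log2 fold change 3.29, standard error 0.49, adjusted p = 0.00273). In Pim1 and Serpina3n WT spleen 1 was the highest WT library, yet the genotypes did not overlap. Osmr, the oncostatin M receptor (log2 fold change 1.53, adjusted p = 0.00225), and Il4ra, a receptor chain for interleukin-4 (log2 fold change 1.01, adjusted p = 0.0352), rose too, while Stat3 itself stood at 3875, 2869, 2802 and 2554 in the WT libraries and 3512, 3762, 3385 and 5645 in the L2-fKO libraries (log2 fold change 0.43, adjusted p = 0.166). The members that fell were Orm1 (log2 fold change -2.41, adjusted p = 0.00138), Hp (log2 fold change -1.86, adjusted p = 0.00961) and Lcn2 (log2 fold change -1.96, adjusted p = 0.0165), acute phase proteins that granulocytes also make. All 3 were lowest in L2-fKO spleen 3, and the part of granulocytes in their fall was not tested. Il4ra lost its call when WT spleen 2, WT spleen 3, WT spleen 4, L2-fKO spleen 1, L2-fKO spleen 2, L2-fKO spleen 3 or L2-fKO spleen 4 was left out (log2 fold change 0.85 to 1.07, adjusted p = 0.0553 to 0.107).

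Other genes of cytokine signalling were named after their values were seen, and which STAT factor acts on them was not tested. The ligand Osm, oncostatin M, stood at 183, 174, 194 and 123 in the WT libraries and 704, 678, 1166 and 503 in the L2-fKO libraries (log2 fold change 2.18, standard error 0.26, adjusted p = 8.34e-04) and Il6st at 5855, 4739.7, 4539 and 3771 in the WT libraries and 10498, 11709, 10606 and 13464 in the L2-fKO libraries (log2 fold change 1.29, standard error 0.15, adjusted p = 6.87e-04). Il6 was near the floor of detection, at 3.77, 5.05, 1.99 and 5.05 in the WT libraries and 17.7, 11.1, 25.0 and 10.2 in the L2-fKO libraries (log2 fold change 1.97, adjusted p = 0.0159). Of further inhibitors of cytokine signalling, which are not particular to the interleukin-6 family, Socs2 stood at 547, 476, 471 and 441 in the WT libraries and 1263, 1334, 1344 and 1289 in the L2-fKO libraries (log2 fold change 1.43, standard error 0.11, adjusted p = 5.19e-05) and Cish at 2182, 671, 543 and 429 in the WT libraries and 5053, 4104, 8922 and 2652 in the L2-fKO libraries (log2 fold change 2.44, standard error 0.55, adjusted p = 0.0187). Socs2 was even within each genotype, whereas Cish in WT spleen 1 was 2182 against 429 to 671 in the other WT libraries. Cish lost its call when WT spleen 2 or WT spleen 4 was left out (log2 fold change 2.19 to 2.30, adjusted p = 0.0544 to 0.0653). Il6 lost its call in the male libraries alone (log2 fold change 1.34, adjusted p = 0.0999).

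The promoters were also searched for TTCNNNGAA, the paired short sites that STAT factors bind, where N is any base. The letters were found in 44 of 302 risen genes (14.6%), 25 of 358 fallen genes (6.98%) and 979 of 11732 genes tested (8.34%). The narrower palindrome TTCCNGGAA gave 1.99%, 1.12% and 1.49%. In the same order, the AP-1 motif gave 7.95%, 7.26% and 4.71%, and the interferon element 5.96%, 2.23% and 3.93%. The ETS motif went the other way, at 23.2%, 28.8% and 31.5%. A higher share in risen genes was thus not particular to the STAT letters. The 44 risen genes also include related copies, Apol10a, Apol11a and Apol11b and Serpina3f, Serpina3g and Serpina3i, which are not independent. Of the acute phase and STAT3 list, 5 of 14 genes with a promoter sequence held TTCNNNGAA, in a window at 1 or more of their starts. They were Socs3, Serpina3f and Serpina3g, which rose, and Fgl2 and Steap4, which were not called. The risen members Osmr, Serpina3n, Pim1 and Il4ra were not among them. The windows below are those of Socs3, Serpina3f and Serpina3g and of Cish, with the match in capitals. Cish lies outside the list, was picked after its match was seen and holds 2 overlapping windows. Serpina3f lost its call when WT spleen 2 or WT spleen 4 was left out (log2 fold change 2.53 to 2.58, adjusted p = 0.0636 to 0.0643). Serpina3f had a log2 fold change of 1.75 without L2-fKO spleen 4 (adjusted p = 0.0109). Serpina3g lost its call when WT spleen 2, WT spleen 3, WT spleen 4 or L2-fKO spleen 4 was left out (log2 fold change 0.94 to 1.55, adjusted p = 0.0182 to 0.100). Serpina3g lost its call with sex as a covariate (log2 fold change 1.51, adjusted p = 0.0692) and in the male libraries alone (log2 fold change 1.84, adjusted p = 0.0684).
Socs3 (chr11:117969501-117969530, minus strand): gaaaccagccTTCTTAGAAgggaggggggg
Serpina3f (chr12:104214413-104214442, plus strand): tcagttctatTTCCTAGAAatcacccattt
Serpina3g (chr12:104236104-104236133, plus strand): taagttatagTTCCCAGAAatcacccggtc
Cish (chr9:107296649-107296678, plus strand): ccgcccagttTTCCTGGAAagttcttggaa
Cish (chr9:107296660-107296689, plus strand): tcctggaaagTTCTTGGAAatctgtcaaag

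Serpina3f and Serpina3g, intracellular protease inhibitors of the clade A3 cluster, carried closely similar windows. Serpina3f stood at 234, 95.0, 99.4 and 81.9 in the WT libraries and 441, 349, 501 and 2014 in the L2-fKO libraries (log2 fold change 2.69, standard error 0.61, adjusted p = 0.0184) and Serpina3g at 2449, 1675, 1236 and 1366 in the WT libraries and 3262, 2965, 3436 and 10042 in the L2-fKO libraries (log2 fold change 1.55, standard error 0.41, adjusted p = 0.0332). Their L2-fKO levels were uneven in the same way, with L2-fKO spleen 4 several times above the other L2-fKO libraries and all 4 above WT. Over the serpins, 6 of 26 rose and 4 fell, beside 2.90% and 3.11% over all genes tested. Without WT spleen 2, or without WT spleen 4, 3 were called up. The risen were mostly of clade A3, and the fallen were Serpina3b, Serpina11, Serpinb2 and Serpinb10.

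Several genes of cholesterol synthesis rose. Cells short of sterol activate the factor SREBP2, which turns on the whole pathway. Of 22 genes, 8 rose and 0 fell, with a median of 0.61 against -0.02 over all genes, and 13 were higher at an adjusted p below 0.05 alone. The shares over all genes tested were 2.90% risen, 3.11% fallen and 6.89% higher at that p alone. Insig1, which holds the pathway in check, stood at 805, 840.5, 1098 and 950.0 in the WT libraries and 2244, 2273, 2807 and 1756 in the L2-fKO libraries (log2 fold change 1.30, standard error 0.16, adjusted p = 9.20e-04). L2-fKO spleen 4 was its lowest L2-fKO library but was above all WT libraries. The enzymes Hsd17b7 (log2 fold change 1.47, adjusted p = 0.00156), Fdps (log2 fold change 1.23, adjusted p = 0.00494), Cyp51 (log2 fold change 1.09, adjusted p = 0.00528), Sqle (log2 fold change 1.09, adjusted p = 0.00892) and Idi1 (log2 fold change 1.15, adjusted p = 0.00981) rose, while the synthase Hmgcs1 stood at 1648, 1733, 1048 and 1535 in the WT libraries and 1649, 1853, 1696 and 1770.2 in the L2-fKO libraries (log2 fold change 0.22, adjusted p = 0.364). The count of risen members ran from 5 to 9 over the other fits. No member of fatty acid synthesis (15 tested, median 0.23) or fatty acid oxidation (16 tested, median -0.06) passed both limits. Cyp51 lost its call when L2-fKO spleen 3 was left out (log2 fold change 0.99, adjusted p = 0.0132). Sqle lost its call when WT spleen 1 or L2-fKO spleen 3 was left out (log2 fold change 0.96 to 0.97, adjusted p = 0.0187 to 0.0209). Cyp51 lost its call in the male libraries alone (log2 fold change 0.86, adjusted p = 0.0482). Fdps lost its call in the male libraries alone (log2 fold change 0.98, adjusted p = 0.0511). Sqle lost its call in the male libraries alone (log2 fold change 0.90, adjusted p = 0.0463).

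The sterol regulatory letters TCACNCCAC were in 1 of 16 promoter-matched genes of the cholesterol list, against 1.42% of all genes tested. It was found in Hmgcs1, whose level was not called, and the window is shown because no other member of the list held the letters.
Hmgcs1 (chr13:119690204-119690233, plus strand): cgtcaccgtcTCACCCCACttcccaggtcc

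**Figure D3:**
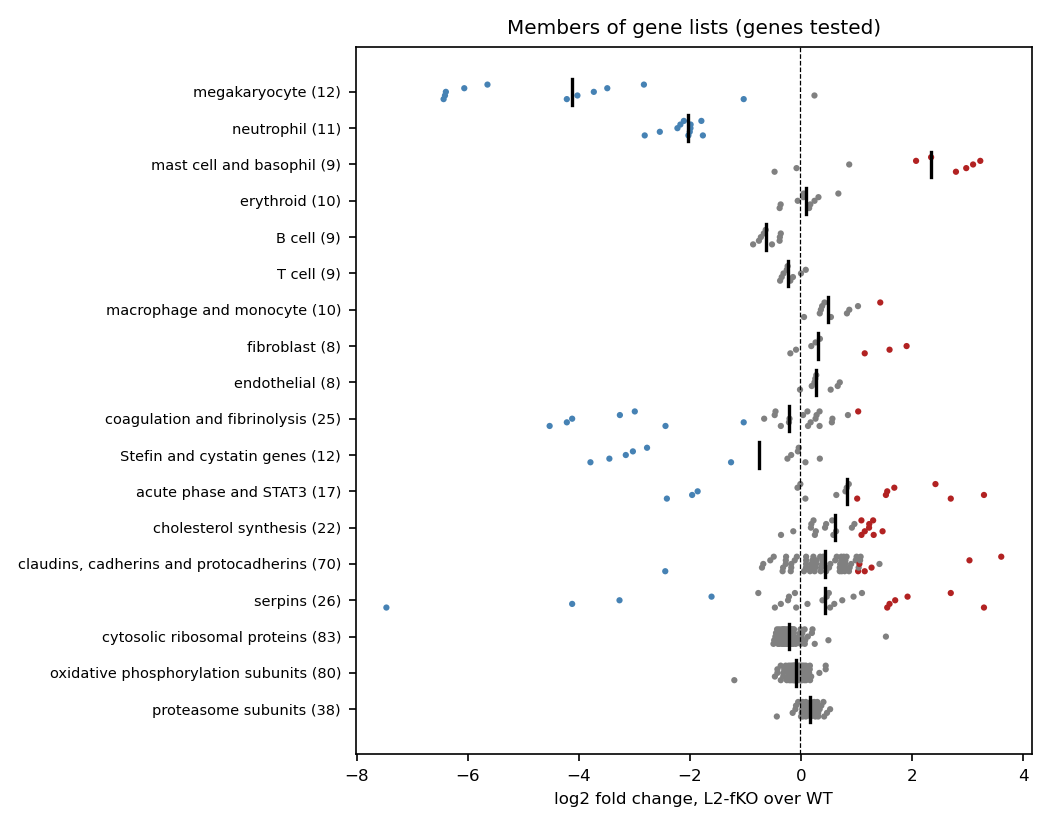
Each point is the log2 fold change of 1 tested member of the list named on the left, with the number tested in brackets, red and blue where it passed both limits upwards or downwards and grey where it did not. Black bars are list medians and the dashed line is the median of all genes, -0.02. The median lies at -4.12 for megakaryocyte, -2.03 for neutrophil and 0.61 for cholesterol synthesis genes, and no ribosomal, respiratory or proteasome gene passed both limits.

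Lists of stress responses held from 0 to 2 called genes each, beside 2.90% risen and 3.11% fallen over all genes tested. Of 20 genes of the integrated stress response, 1 rose, Mthfd2, and 4 were called up without WT spleen 1. Of 20 p53 targets, 1 rose, the cell cycle inhibitor Cdkn1a, at 525, 411, 328 and 365 in the WT libraries and 1827, 1614, 2085 and 1093 in the L2-fKO libraries (log2 fold change 2.02, standard error 0.22, adjusted p = 4.62e-04). Mdm2 (log2 fold change 0.63, adjusted p = 0.0118), Ccng1 (log2 fold change 0.71, adjusted p = 0.00304) and Aen (log2 fold change 0.55, adjusted p = 0.0263) were higher at the adjusted p but not at the fold limit, and the list's median was 0.09. Cdkn2a, which encodes the INK4A and ARF inhibitors, stood at 21.7, 14.1, 4.97 and 8.09 in the WT libraries and 112, 67.6, 299 and 76.7 in the L2-fKO libraries (log2 fold change 3.48, standard error 0.60, adjusted p = 0.00537), and its neighbour Cdkn2b at 18.9, 15.2, 11.9 and 12.1 in the WT libraries and 44.9, 35.4, 46.7 and 34.1 in the L2-fKO libraries (log2 fold change 1.46, standard error 0.25, adjusted p = 0.00576). Of 20 antioxidant genes, 2 rose: Gpx3, the plasma glutathione peroxidase (log2 fold change 2.57, adjusted p = 5.01e-04), and Srxn1, sulfiredoxin (log2 fold change 1.61, adjusted p = 0.00142). The heat shock genes Hspa1a (log2 fold change 1.17, adjusted p = 0.0104) and Hspa1b (log2 fold change 1.00, adjusted p = 0.0145), near-identical copies whose shared reads were not counted, were the 2 risen of 23 chaperone genes. In glycolysis the lactate carrier Slc16a3 (log2 fold change 1.26, adjusted p = 0.00477) was the risen member of 22, and in hypoxia Plod2, a collagen hydroxylase (log2 fold change 1.13, adjusted p = 6.06e-04), of 21. No gene of the unfolded protein response, the tricarboxylic acid cycle, the pentose phosphate pathway, haem synthesis, iron handling, the circadian clock, the lysosome or the metallothioneins passed both limits, out of 20, 18, 7, 14, 17, 19, 26 and 14 tested. Hspa1a lost its call when L2-fKO spleen 1 was left out (log2 fold change 0.99, adjusted p = 0.0363). Hspa1b lost its call when WT spleen 1, WT spleen 3, WT spleen 4, L2-fKO spleen 1 or L2-fKO spleen 2 was left out (log2 fold change 0.86 to 1.00, adjusted p = 0.0247 to 0.0542). Hspa1b lost its call with sex as a covariate (log2 fold change 0.96, adjusted p = 0.0281) and in the male libraries alone (log2 fold change 0.98, adjusted p = 0.0671).

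Lists of the core machinery of the cell held no called gene. None of 83 cytosolic ribosomal protein genes, 80 oxidative phosphorylation subunits or 38 proteasome subunits passed both limits. Their medians were -0.21, -0.10 and 0.16, and -0.21, -0.10 and 0.16 with DESeq2's size factors. Rplp0, a ribosomal stalk protein, stood at 113215, 145992, 134745 and 163911 in the WT libraries and 151819.9, 143499, 160426 and 98228 in the L2-fKO libraries (95% interval -0.44 to 0.42), and Psmd2, a subunit of the proteasome cap, at 11936, 14253, 13284 and 13779.5 in the WT libraries and 16932, 17095, 18556 and 13396 in the L2-fKO libraries (95% interval 0.02 to 0.59). Of 10 erythroid, 9 B cell and 9 T cell markers none was called, with medians of 0.10, -0.64 and -0.24. B cell marker levels were uneven among WT libraries, with summed levels of 74908 in WT spleen 1 and 14420.4 in WT spleen 3, against 15545 to 39248 in L2-fKO. Of 6 plasma cell markers 2 rose, Jchain, which joins immunoglobulin chains (log2 fold change 1.89, adjusted p = 0.00423), and Tnfrsf17, a survival receptor (log2 fold change 2.50, adjusted p = 0.00304). Of the 10 macrophage markers Cd5l, a scavenger protein of tissue macrophages, rose, at 2465, 2063, 1563 and 1409 in the WT libraries and 3155, 3004, 3382 and 10600.5 in the L2-fKO libraries (log2 fold change 1.43, adjusted p = 0.0478), with L2-fKO spleen 4 far above the rest. Cd209a, a lectin of dendritic cells and monocytes, fell, at 55.6, 51.5, 37.8 and 40.4 in the WT libraries and 2.09, 2.22, 3.26 and 2.56 in the L2-fKO libraries (log2 fold change -4.13, adjusted p = 5.19e-05). Cd5l lost its call when WT spleen 1, WT spleen 2, WT spleen 3, WT spleen 4, L2-fKO spleen 1 or L2-fKO spleen 4 was left out (log2 fold change 0.76 to 1.59, adjusted p = 0.0218 to 0.133). Cd5l lost its call with sex as a covariate (log2 fold change 1.36, adjusted p = 0.0961) and in the male libraries alone (log2 fold change 1.69, adjusted p = 0.0994).

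**Figure D4:**
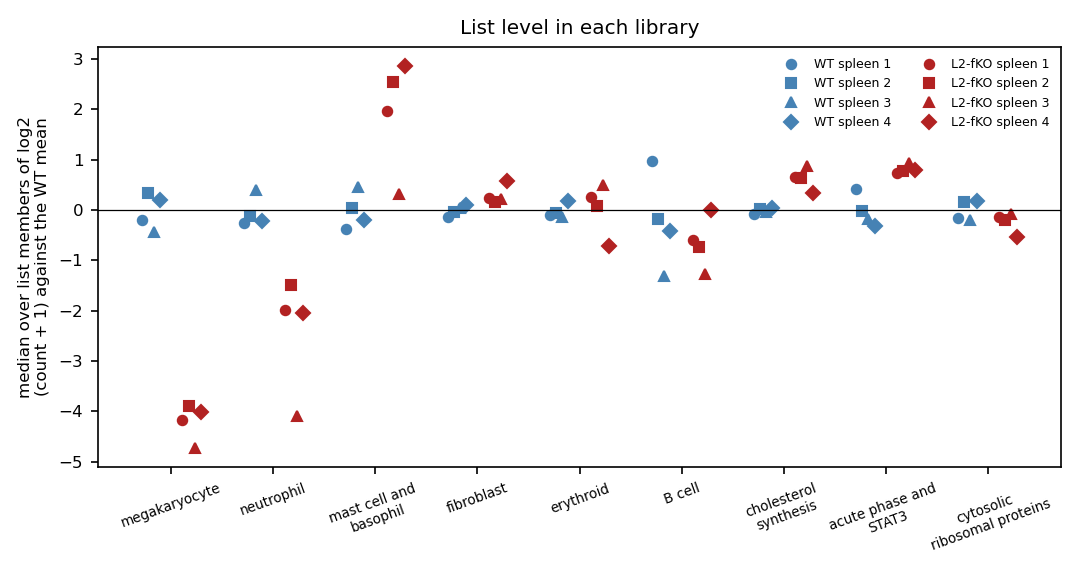
For each library, points give the median over all tested members of a list of log2(normalized count + 1) minus log2 of the gene's WT mean + 1, blue for WT and red for L2-fKO, with a marker shape for each replicate number. L2-fKO spleen 3 is lowest for neutrophil genes at -4.09 and nearest to WT for mast cell genes at 0.31, and L2-fKO spleen 4 is nearest to WT for cholesterol synthesis at 0.33 and lowest for erythroid genes at -0.71.

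Several red cell genes outside the erythroid list passed both limits, and they were named after their values were seen. The embryonic beta-like globins Hbb-bh1 and Hbb-y, which are normally silenced in favour of the adult genes before birth, rose. Hbb-bh1 stood at 17.0, 20.2, 12.9 and 34.4 in the WT libraries and 168, 124, 180.3 and 46.0 in the L2-fKO libraries (log2 fold change 2.61, standard error 0.46, adjusted p = 0.00590), and Hbb-y at 12.3, 15.2, 23.9 and 13.1 in the WT libraries and 71.0, 76.4, 52.1 and 31.5 in the L2-fKO libraries (log2 fold change 1.83, standard error 0.35, adjusted p = 0.00886). The adult gene Hbb-bs stood at 1674595, 1578643, 912397 and 1659299.9 in the WT libraries and 1295017, 1131665, 1603765 and 746182 in the L2-fKO libraries (log2 fold change -0.29, adjusted p = 0.553), and Bcl11a, a repressor of fetal globin, at 4029, 3113, 3912 and 2849 in the WT libraries and 3814, 4068, 3759.7 and 3451 in the L2-fKO libraries (log2 fold change 0.12, adjusted p = 0.583). Erfe, erythroferrone, a hormone of erythroblasts that lowers hepcidin, stood at 1712, 485, 552 and 162 in the WT libraries and 5746, 4906, 9049 and 3116 in the L2-fKO libraries (log2 fold change 2.97, standard error 0.63, adjusted p = 0.0139). WT spleen 1 had more Erfe than the other WT libraries, and all L2-fKO libraries were above it. Tmprss6, a protease that also acts on hepcidin control, fell from 51.9, 66.7, 83.5 and 78.8 to 5.22, 3.32, 4.35 and 5.97 (log2 fold change -3.84, standard error 0.29, adjusted p = 6.22e-05). Klf1, the master regulator of adult erythroid genes, stood at 12615, 16599.9, 14219.7 and 19880.0 in the WT libraries and 19355, 16689, 20266 and 9104 in the L2-fKO libraries (log2 fold change 0.05, adjusted p = 0.923). Erfe lost its call when WT spleen 2 was left out (log2 fold change 2.82, adjusted p = 0.0513). Hbb-bh1 lost its call in the male libraries alone (log2 fold change 2.03, adjusted p = 0.0601).

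Of 22 imprinted and fetal growth genes, 2 rose and 2 fell, beside 2.90% and 3.11% over all genes tested. Mest, a paternally expressed gene of mesoderm, stood at 379, 804, 1084 and 916 in the WT libraries and 3249, 3018, 3234 and 3343 in the L2-fKO libraries (log2 fold change 2.01, standard error 0.27, adjusted p = 0.00137), and Lin28a, an RNA-binding protein of fetal blood progenitors, at 203, 272, 328 and 221 in the WT libraries and 99.2, 106, 25.0 and 92.1 in the L2-fKO libraries (log2 fold change -1.66, standard error 0.38, adjusted p = 0.0193). Igf2bp1 (log2 fold change 1.39, adjusted p = 0.0292) rose from low counts and Dlk1, an imprinted Notch-like ligand (log2 fold change -2.21, adjusted p = 0.0252), fell. Dlk1 lost its call when WT spleen 4, L2-fKO spleen 1, L2-fKO spleen 2 or L2-fKO spleen 3 was left out (log2 fold change -2.24 to -1.49, adjusted p = 0.0512 to 0.0779). Igf2bp1 lost its call when WT spleen 2, WT spleen 4 or L2-fKO spleen 2 was left out (log2 fold change 1.24 to 1.37, adjusted p = 0.0779 to 0.0856). Lin28a lost its call when WT spleen 2 was left out (log2 fold change -1.63, adjusted p = 0.0552). Igf2bp1 lost its call with sex as a covariate (log2 fold change 1.39, adjusted p = 0.0541).

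Of 70 claudins, cadherins and protocadherins, 6 rose and 1 fell, beside 2.90% and 3.11% over all genes tested, with a median of 0.43. Without WT spleen 2, or without L2-fKO spleen 4, 3 were called up. Pcdhac2, a clustered protocadherin, stood at 14.1, 17.2, 40.7 and 23.2 in the WT libraries and 322, 346, 242 and 253 in the L2-fKO libraries (log2 fold change 3.60, standard error 0.32, adjusted p = 1.83e-04), and genes of its cluster share their last exons, so its level is uncertain. The fallen member was Cldn1, a tight junction claudin (log2 fold change -2.44, adjusted p = 5.14e-04). Of 30 semaphorins and plexins, 3 rose and 0 fell. Sema3g, a guidance factor of vessels, stood at 899.7, 801, 535 and 671 in the WT libraries and 2017, 1769, 1841 and 2369.6 in the L2-fKO libraries (log2 fold change 1.46, standard error 0.17, adjusted p = 7.16e-04), and Sema3f at 1184, 1025, 1181 and 1033 in the WT libraries and 2251, 2269.6, 2215 and 2623 in the L2-fKO libraries (log2 fold change 1.08, standard error 0.11, adjusted p = 2.81e-04). Integrins had 0 risen and 4 fallen members of 25, and without WT spleen 3, or without L2-fKO spleen 3, 3 or 2 were called up. Itga2b and Itgb3, the chains of the platelet fibrinogen receptor, stood at 5301, 8208, 4168 and 6910.0 in the WT libraries and 533, 436, 478 and 406 in the L2-fKO libraries and at 7351, 9660.1, 6605 and 8176 in the WT libraries and 401, 557, 336 and 657 in the L2-fKO libraries (-3.73 and -4.02 on the log2 scale), and Itgam, a chain of the main myeloid integrin, at 959, 1055, 1144 and 908 in the WT libraries and 185, 286, 71.7 and 292 in the L2-fKO libraries (log2 fold change -2.28, adjusted p = 0.00344). Among the connexins that passed the test, Gjb2 (log2 fold change -4.27, adjusted p = 3.80e-04) fell and Gja5, of arterial endothelium (log2 fold change 1.73, adjusted p = 0.00618), rose.

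Of 261 solute carriers, 6 rose and 14 fell, beside 2.90% and 3.11% over all genes tested. The fallen members with the lowest p were Slc24a5, a cation exchanger (log2 fold change -2.37, adjusted p = 1.33e-04), Slc35d3, needed for platelet dense granules (log2 fold change -3.37, adjusted p = 5.14e-04), and Slc7a4 (log2 fold change -1.69, adjusted p = 5.93e-04), and the risen were Slc25a33, a mitochondrial pyrimidine carrier (log2 fold change 1.54, adjusted p = 7.34e-04), Slc23a1, a vitamin C transporter (log2 fold change 1.89, adjusted p = 0.00217), and Slc16a3. Abcc9, the sulfonylurea receptor of vascular potassium channels, stood at 2027, 1529, 1957 and 1408 in the WT libraries and 4377, 4503, 5387 and 5553 in the L2-fKO libraries (log2 fold change 1.52, standard error 0.15, adjusted p = 2.76e-04). Of 24 voltage-gated calcium and sodium channels, 2 rose and 1 fell, with a median of 0.14. The calcium channel gene Cacna1c rose (log2 fold change 1.99, adjusted p = 6.27e-04) and Cacna1g fell (log2 fold change -1.93, adjusted p = 2.44e-04). The cation channel Trpc6 fell from 306, 415, 233 and 378 to 19.8, 33.2, 30.4 and 25.6 (log2 fold change -3.61, standard error 0.26, adjusted p = 3.94e-05). Among the aldehyde dehydrogenases, Aldh1a7 (log2 fold change -3.35, adjusted p = 2.03e-04), Aldh1a1, a retinaldehyde dehydrogenase (log2 fold change -2.30, adjusted p = 0.00648), and Aldh3b2 (log2 fold change -3.86, adjusted p = 7.95e-04) fell while Aldh1a3, another retinaldehyde dehydrogenase (log2 fold change 1.63, adjusted p = 2.03e-04), rose. C-type lectins gave 2 risen, Clec14a of endothelium (log2 fold change 1.07, adjusted p = 0.00116) and Clec4n of macrophages (log2 fold change 1.38, adjusted p = 0.00366), and 5 fallen of 25, among them Clec1b, the platelet podoplanin receptor (log2 fold change -2.12, adjusted p = 9.53e-04), and Clec12a, a myeloid inhibitory receptor (log2 fold change -1.41, adjusted p = 0.00217).

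Along the chromosomes, 14 runs of 3 or more neighbouring tested genes were called in the same direction, 8 up and 6 down, 53 genes in all (GENCODE annotation, build GRCm38). The longest was the stefin A cluster at chr16:36156811-36455392, cysteine protease inhibitors of granulocytes, where 10 consecutive genes fell, with log2 fold changes of -4.55 to -2.77. Stfa1 stood at 8513, 21290.1, 29809.9 and 19393 in the WT libraries and 1782, 1842, 232 and 1851 in the L2-fKO libraries (log2 fold change -3.79, standard error 0.62, adjusted p = 0.00412), and 2010005H15Rik in the same cluster at 549, 1501, 2267 and 1669.6 in the WT libraries and 50.1, 127, 11.9 and 65.7 in the L2-fKO libraries (log2 fold change -4.55, standard error 0.62, adjusted p = 0.00162). WT spleen 1 was the lowest WT library and L2-fKO spleen 3 the lowest L2-fKO library in both. Copies in this cluster are alike and reads they share were not counted, so their levels are uncertain. The ribonuclease genes Ear1 and Ear2 with Ear-ps9 and Gm8113 fell at chr14:43818765-44103534, the Ly6 group of Gm5960, Ly6c2, I830127L07Rik, Ly6g and 9030619P08Rik at chr15:75071112-75431829, the chemokine receptors Ccr1, Ccr3 and Ccr2 at chr9:123962124-124113557, Anxa1, Aldh1a1 and Aldh1a7 at chr19:20373428-20727562, and Lrrc56, Lmntd2 and Rassf7 at chr7:141194157-141218658. The genes that rose in runs were Mcpt1, Mcpt2 and Mcpt4 at chr14:56017971-56062313, Ccl2, Ccl11 and Ccl12 at chr11:82035571-82103400, Serpina3c, Serpina3f and Serpina3g at chr12:104146382-104241939, Rgs5, Rgs4 and Hsd17b7 at chr1:169655501-169969241, Cdkn2a, Cdkn2b and Elavl2 at chr4:89274471-91400785, Sparcl1, Dmp1 and Spp1 at chr5:104079111-104441050, Ccdc87, Ctsf and Actn3 at chr19:4839366-4877909, and 4 immunoglobulin kappa variable genes at chr6:68270485-68437925. In 4 of the 14 runs every member was still called with any 1 library left out, and in the others Serpina3f, Serpina3g, Ear-ps9, Gm8113, Ly6c2, I830127L07Rik, Ly6g, 9030619P08Rik, Gm15845, Ctsf, Actn3, Anxa1, Spp1, Igkv1-110, Igkv2-109, Igkv15-103, Lrrc56, Lmntd2, Ccr1 and Ccr3 lost their calls in at least 1 such fit, with adjusted p of up to 0.126. Rgs4 and Rgs5, which switch off G protein signals and mark pericytes, stood at 106, 81.8, 43.7 and 69.7 in the WT libraries and 938, 1012, 1709 and 776 in the L2-fKO libraries (log2 fold change 3.88, adjusted p = 1.23e-04) and at 341, 184, 103 and 210.2 in the WT libraries and 1754, 1235, 2721 and 1299 in the L2-fKO libraries (log2 fold change 3.06, adjusted p = 9.06e-04).

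Some genes were called against a genotype with almost no counts. Prrxl1, a homeobox gene of sensory neurons, had 0 counts in all WT libraries and 127 in the 4 L2-fKO libraries, at least 43.3-fold higher against a floor of 3 counts over the WT group. Gm11638 had 0 and 65, at least 22.2-fold higher. Fgf15, an endocrine growth factor of the same subfamily as Fgf23, had 1 count in WT and 66 in L2-fKO, a ratio of 67.5 with a 95% counting interval of 11.7 to 2707. No called gene was at 0 in all L2-fKO libraries. Among the lowest were A930009A15Rik with 1 count against 108 and 2610528J11Rik with 2 against 202, ratios of WT to L2-fKO of 106 (95% counting interval 18.5 to 4207) and 98.7 (27.0 to 821). These intervals cover counting error only. A gene below 10 counts in every library of 1 genotype was tested only if all 4 libraries of the other reached 10. For these genes, and for Serpina3b above, the filter thus set the lack of overlap and favoured a large ratio. Neither is evidence beyond the counts.

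Over all genes tested, 2.90% rose and 3.11% fell, and the shares near the deleted gene and by biotype stand beside these. Within 1 Mb of the deleted gene on chromosome 17, 0 of 13 other genes were called, and within 5 Mb 2 rose and 1 fell of 52. These were Cyp1b1 (log2 fold change 1.18, adjusted p = 0.0110), Ston1 (log2 fold change 1.01, adjusted p = 0.0360) and Kcnk12 (log2 fold change -1.97, adjusted p = 0.0104). By biotype, 411 risen and 423 fallen genes were protein-coding, of 14283 tested. Immunoglobulin variable genes rose in 24 of 171 cases and fell in 0. Long intergenic RNAs gave 20 risen and 25 fallen of 409. In sum over genes, the 490 risen genes took 219741 to 266121 normalized counts in WT and 647469 to 813028 in L2-fKO, and the 526 fallen genes 623612 to 819219 and 134805 to 211919. Ston1 lost its call when WT spleen 2, WT spleen 4, L2-fKO spleen 1, L2-fKO spleen 2, L2-fKO spleen 3 or L2-fKO spleen 4 was left out (log2 fold change 0.84 to 1.07, adjusted p = 0.0518 to 0.103).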

How the data were processed

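Polyadenylated RNA of 8 spleens was analysed, 4 WT and 4 L2-fKO, grouped by the sample labels. Trimming by the authors used Trimmomatic 0.36 and mapping to GRCm38 used STAR 2.5.2b. They assigned unique exonic reads to genes by strand with featureCounts of Subread 1.5.2, and the deposited values used here are these raw counts per gene. Reads that also match a near-identical gene copy were thus dropped, which lowers genes of multigene families. The authors' own tables of fold changes and p-values, and the ovary libraries, were not used.

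Genes reaching 10 counts in 4 or more of the 8 libraries were tested with edgeR 4.0.16 (R 4.3.3), with TMM normalization and the quasi-likelihood test, with genotype as the only term and Benjamini-Hochberg adjustment. A call needed an adjusted p below 0.05 beside a log2 fold change beyond 1 in either direction. Standard errors and 95% intervals are of the fitted log2 fold change. On simulated counts of the 16911 genes with 200 changed by a log2 fold of 2, 178 were recovered with 6 false calls. Each gene was drawn independently there, without shifts of a library shared by many genes, so these numbers need not hold for the real libraries. Alternatives used DESeq2 1.42.0 and limma 3.58.1, DESeq2's size factors, other filters on low counts, sex as a covariate, the male libraries, the replicate number as a block and each library left out. Other steps used Python 3.11.15, pandas 2.3.3, numpy 2.4.6 and scipy 1.17.1. Sums and lists rest on lists of genes written by hand, and promoter sequences are RefSeq's for GRCm38.p6.

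The genes named were, per direction, the 12 with the largest fold among those with a mean of at least 100 normalized counts in the higher genotype and no overlap, the 8 with the largest difference, the 6 with the lowest p, up to 3 per pathway or family list, the cell type markers, the deleted gene and members of runs along a chromosome. Eosinophil, cytokine signalling and red cell genes, further cholesterol, clotting, p53, matrix and stress genes, and genes near Zfp36l2 were added after their values were seen. The members and lists were chosen with earlier results of these data known, so their counts are descriptions. Each library is 1 animal, and p-values set the genotype difference against the spread between animals of the same genotype. The estimate of that spread for each gene draws in part on the other genes tested. Values of some named genes are not reported here.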

Additional observations from a re-analysis of the deposited data

Results flagged for a closer look

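For each gene named here with values, the highest and the lowest of the 4 libraries of a genotype were checked for a gap to the nearest other library that, as a share of the group's range, passed Dixon's 95% limit for 4 samples. Of 334 pairs of a gene and a genotype, 38 (11.4%) passed. Chance alone flags about 1 in 20 groups of normally distributed values, and genes of 1 cell type share their libraries, so the pairs are not independent. Where the other 3 libraries are at 0, any read in the remaining library passes the limit. This held for Fgf15 in WT and for A930009A15Rik, 2610528J11Rik and Serpina3b in L2-fKO. In each pair the range after the word against is that of the other 3 libraries of the same genotype, and the cause was not tested.

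WT spleen 1 stood apart as the highest library of its genotype in 7 genes, with normalized counts of Apol11b 5557 against 2667 to 2921, Chac1 152 against 12.1 to 26.3, Cish 2182 against 429 to 671 and Fgf15 0.943 against 0. Its high values also included Klrb1c 198 against 82.5 to 96.0, Serpina3f 234 against 81.9 to 99.4 and Trib3 2211 against 114 to 165. WT spleen 1 stood apart as the lowest library of its genotype in 1 gene, with normalized counts of F5 1007 against 1231 to 1240.1. WT spleen 3 stood apart as the highest library of its genotype in 4 genes, with normalized counts of Ear6 2108 against 582 to 697, Epx 3706 against 1247 to 1592, Prg2 19101 against 7516 to 8685 and S100a9 73575 against 43103 to 47219. WT spleen 3 stood apart as the lowest library of its genotype in 2 genes, with normalized counts of Hbb-bs 912397 against 1578643 to 1674595 and Serpinb2 267 against 286 to 289. L2-fKO spleen 2 stood apart as the highest library of its genotype in 2 genes, with normalized counts of A930009A15Rik 1.11 against 0 and Thbs1 1494 against 968 to 1032. L2-fKO spleen 3 stood apart as the lowest library of its genotype in 5 genes, with normalized counts of Chil3 164 against 719 to 823, Gp1bb 26.1 against 47.0 to 47.7, Lyz2 4577 against 11773 to 12999.6 and Orm1 6.52 against 16.2 to 17.7. Its low values also included Stfa1 232 against 1782 to 1851. L2-fKO spleen 4 stood apart as the highest library of its genotype in 15 genes, with normalized counts of 2610528J11Rik 1.71 against 0, Adgre1 10379.6 against 4861 to 5009.6, Cd5l 10600.5 against 3004 to 3382 and Clec4n 7516 against 5023 to 5307. Its high values also included Csf1r 26579.6 against 11966 to 12509, Gbp2b 520.1 against 24.0 to 50.0, Gjb2 15.3 against 5.43 to 6.65 and Gzma 686 against 75.2 to 116. Its high values further included Ncr1 84.4 against 9.78 to 16.7, Pdgfrb 6508 against 4561 to 4859, Sema3f 2623 against 2215 to 2269.6 and Serpina3b 2.56 against 0. Its high values further included Serpina3f 2014 against 349 to 501, Serpina3g 10042 against 2965 to 3436 and Stat3 5645 against 3385 to 3762. L2-fKO spleen 4 stood apart as the lowest library of its genotype in 2 genes, with normalized counts of Idi1 627 against 1149 to 1255 and Ly6g6f 3.41 against 7.60 to 8.35.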

How the results depend on the processing

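The 490 risen and 526 fallen genes became 496 and 529 with DESeq2's size factors in edgeR, 548 and 596 with DESeq2, and 1166 and 1101 with the adjusted p as the only limit. With limma-voom and library weights, added after seeing the data, 781 and 751 were called, the weights letting libraries that vary more count less. With 1 library left out, the counts ran from 340 to 594 up and from 370 to 666 down. Across all refits, 262 of the risen and 285 of the fallen genes were called in every one that tested them. The median log2 fold change of all genes was -0.02 and lay between -0.109 and 0.0235 over the refits.

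A block for the replicate number left 411 risen and 389 fallen genes. The labels of WT spleen 3 and WT spleen 4 both carry the number 3, and the second was numbered 4 here by sample order. The block and the correlations below rest on that assigned number. Replicate numbers were not taken as pairing. The deviations of same-numbered libraries from their group means correlated from -0.293 to 0.179. No label ties a number to a litter, day or age-matched pair. Under the block, Cd5l, Ctse, Gbp2b, Hspa1a, Hspa1b, Igf2bp1, Il6, Klrb1c, Lin28a, Plat, Serpina3g and Ston1 no longer passed both limits (adjusted p = 0.0439 to 0.119). Of the 144 called genes given with values, 123 were called under every refit that tested them.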

Other observations

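Natural killer cell genes stood apart in 1 L2-fKO library. The summed level of 7 natural killer markers was 621 to 1472 normalized counts in WT, 326 to 373 in L2-fKO spleen 1, 2 and 3 and 1477 in L2-fKO spleen 4. Gzma, a granzyme of cytotoxic granules, stood at 482, 410.1, 239 and 322 in the WT libraries and 75.2, 111, 116 and 686 in the L2-fKO libraries (log2 fold change -0.55, adjusted p = 0.608). Ncr1, the activating receptor NKp46, stood at 98.1, 59.6, 38.8 and 44.5 in the WT libraries and 16.7, 13.3, 9.78 and 84.4 in the L2-fKO libraries (log2 fold change -0.92, adjusted p = 0.371). In both, L2-fKO spleen 4 was within or above the WT range and the other L2-fKO libraries were below it. Without L2-fKO spleen 4, both were called down (log2 fold change -1.85, adjusted p = 0.00301 and log2 fold change -2.17, adjusted p = 0.00802), among 4 of the 6 markers tested. With all libraries, Klrb1c, a lectin-like receptor, was the marker that fell, from 198, 96.0, 82.5 and 90.0 to 32.4, 43.2, 30.4 and 73.3 (log2 fold change -1.37, adjusted p = 0.0403). It lost this call when WT spleen 1, WT spleen 2, WT spleen 4, L2-fKO spleen 1, L2-fKO spleen 2 or L2-fKO spleen 3 was left out (log2 fold change -1.48 to -0.99, adjusted p = 0.0692 to 0.116), with sex as a covariate or in the male libraries alone (adjusted p = 0.0832 and 0.132). Macrophage genes were higher in L2-fKO spleen 4 as well, with a summed level of 183214 over 10 markers against 103115 to 109217 in the other L2-fKO libraries and 63199.8 to 110646 in WT. Csf1r, the receptor that keeps macrophages alive, stood at 10259.6, 10207, 7241 and 7987 in the WT libraries and 12509, 11966, 12208 and 26579.6 in the L2-fKO libraries (log2 fold change 0.83, adjusted p = 0.0722), and Adgre1, the macrophage surface protein F4/80, at 3375, 4184, 3028 and 3218 in the WT libraries and 5009.6, 4947, 4861 and 10379.6 in the L2-fKO libraries (log2 fold change 0.87, adjusted p = 0.0481).

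A pair of genes of the integrated stress response was far higher in WT spleen 1 than in the other WT libraries. Trib3, a pseudokinase induced by amino acid shortage, stood at 2211, 115, 114 and 165 in the WT libraries and 923, 1149.8, 1125 and 832 in the L2-fKO libraries (log2 fold change 0.63, adjusted p = 0.675), and Chac1, which degrades glutathione, at 152, 12.1, 19.9 and 26.3 in the WT libraries and 198, 149.5, 113 and 98.1 in the L2-fKO libraries (log2 fold change 1.40, adjusted p = 0.209). Without WT spleen 1 the genotypes did not overlap and both were called (log2 fold change 2.94, adjusted p = 8.10e-05 and log2 fold change 2.84, adjusted p = 0.00193). These genes were picked after their values were seen, and the cause of the difference between the WT libraries was not tested.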
